A study of Mus musculus with 6 samples.

Results

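The miR-15, miR-16, miR-195 and miR-497 family was described in epididymal white adipose tissue (WAT) of wild-type (Wt) mice and of mice overexpressing angiotensinogen in fat (Agt Tg). Its members were chosen by name: every arm listed for hsa-mir-15a, hsa-mir-15b, hsa-mir-16 (with 16-1 and 16-2), hsa-mir-195 and hsa-mir-497 in the table of mature miRNAs. This gave 11 of the 1983 rows of the table, 5 of them 5p arms and 6 of them 3p arms. Of the 11, 7 were above the lowest reportable value in all 6 libraries and 4 were at that value in all 6. Across the series, 329 rows were above it in at least 3 libraries.

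The 6 small RNA libraries came from 3 Wt and 3 Agt Tg mice, 1 library per mouse, all male and of strain C57BL6/J. The labels give a chow diet for both genotypes, whereas the study's methods give a low fat diet, and no age is stated. In the Agt Tg mice the aP2 promoter drives the Agt transgene in adipose tissue, and the study states that this promoter is also active in macrophages. The comparison addresses which miRNAs differ in WAT when the renin-angiotensin system is overactive. The Agt mRNA is not measured by small RNA libraries, so the transgene could not be checked here. WAT holds adipocytes, vessels, blood and immune cells, and in such bulk samples fewer cells of a type and less RNA per cell cannot be told apart.

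MicroRNAs guide Argonaute proteins to mRNAs, mainly through bases 2 to 8 of the mature strand, called the seed, and thereby lower the stability and translation of their targets. Each miRNA hairpin can give a 5p and a 3p strand, of which usually only the guide strand is kept in quantity. The miR-15/16 family is known for holding back the cell cycle, through cyclins and their kinases, and for lowering the apoptosis inhibitor Bcl2. The miR-15a and miR-16-1 pair is widely described as a tumour suppressor, and miR-195 and miR-497 are also described in differentiating muscle, heart and mesenchymal cells.

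The mature mouse sequences of the 5 guide strands are shown because they share the seed on which the family rests. They are from RefSeq (GRCm38.p6), 5′ to 3′, with the seed in capitals.
miR-15a-5p: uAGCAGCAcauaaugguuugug
miR-15b-5p: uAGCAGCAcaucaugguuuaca
miR-16-5p: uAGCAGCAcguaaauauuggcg
miR-195a-5p: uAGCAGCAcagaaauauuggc
miR-497a-5p: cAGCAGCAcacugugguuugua

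All 5 have the seed AGCAGCA, and bases 2 to 9 are the same in all of them. Of the 1679 mouse mature miRNA names held by RefSeq, 10 (0.596%) have this seed, miR-195b and miR-322-5p, the mouse counterpart of human miR-424-5p, among them. By bases in common over the whole strand, seed included, the guides were grouped into 2 kinds. Counted from 1 at the 5′ end, miR-16-5p and miR-195a-5p had 19 of 21 bases in common and differed by G10A and U11G, with the base of miR-16-5p first. miR-15a-5p and miR-15b-5p had 18 of 22 bases in common and differed by A12C, G20A, U21C and G22A, with the base of miR-15a-5p first. miR-497a-5p was closer to miR-15a-5p, with 17 of 22 bases in common, than to miR-16-5p, with 11 of 22. The 2 kinds are not sharply parted, since miR-15a-5p and miR-16-5p had 16 of 22 bases in common, as many as miR-15b-5p and miR-497a-5p. The miRNA miR-195b has the first 16 bases of miR-195a-5p, so that reads of the 2 could be hard to part.

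The 3p strands do not carry that seed. They are shown because 2 of them were measured and 4 were not seen above the lowest reportable value.
miR-15b-3p: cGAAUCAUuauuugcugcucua
miR-195a-3p: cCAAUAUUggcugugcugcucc
miR-15a-3p: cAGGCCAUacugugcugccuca
miR-16-1-3p: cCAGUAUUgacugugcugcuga
miR-16-2-3p: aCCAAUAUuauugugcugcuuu
miR-497a-3p: cAAACCACacugugguguuag

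The family is encoded in 3 clusters, each with a miRNA of the miR-15 or miR-497 kind beside a miRNA of the miR-16 or miR-195 kind. Mir15a (chromosome 14, 61632027 to 61632110, minus strand, GRCm38) and Mir16-1 (61631880 to 61631972) lie 54 bases apart within Dleu2, a long non-coding RNA gene on the same strand. Mir15a is intronic to it, while Mir16-1 overlaps the end of 1 annotated Dleu2 exon by 13 bases. Mir15b (chromosome 3, 69009772 to 69009835, plus strand) and Mir16-2 (69009902 to 69009996) lie 66 bases apart in an intron of Smc4, which encodes a condensin subunit that compacts chromosomes for mitosis. Mir497 (chromosome 11, 70234717 to 70234800, plus strand) and Mir195a (70235042 to 70235135) lie 241 bases apart, with no host gene in GENCODE M21 over Mir195a. Mir497 is overlapped on the opposite strand by Mir497b. Since the mature miR-16-5p is the same from Mir16-1 and Mir16-2, its 1 row sums both clusters.

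A target pairs with the seed through the letters TGCTGCT, and a following A extends this to the strongest kind of site. This motif was searched on the sense strand of the longest annotated 3′ UTR (GENCODE M21) of 17 genes. Of these, 13 held it, compared to 4221 of 20883 genes (20.2%). Most of the 17 were picked as described targets of the family, so their higher share follows from that choice and is not a result. Genes widely described as targets of the family had between 1 and 3 matches each: Bcl2, Ccnd1, Ccnd2, Ccnd3, Ccne1, Cdk6, Wee1, Chek1, Cdc25a, E2f3, Vegfa and Insr. Of the 3 matches in Cdk6, 2 overlap each other. Long UTRs hold the motif more often, so each gene was also read against UTRs within 10% of its length. In that reading the motif was present in 54.2% of UTRs as long as that of Bcl2 (5086 bases) but in 9.41% of those as long as that of Ccne1 (531 bases), the gene of cyclin E1. Of the genes in the study's own question, Map2k3 held 1 match (15.3% of UTRs of like length), and Agt, Agtr1a, Map3k7 and Mapk14 held 0. The sites below are shown with the motif in capitals, as examples of what the shared seed pairs with.
Bcl2: aagaaaccctgTGCTGCTatcctgccaag
Ccne1: tattttgtaagTGCTGCTatgtctatcaa
Map2k3: gcctctgctgtTGCTGCTcccagggtctc

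The Bcl2 site lies on chromosome 1 from 106540799 to 106540805 and the Ccne1 site on chromosome 7 from 38098024 to 38098030, both on the minus strand and both followed by an A. The Map2k3 site lies on chromosome 11 from 60952066 to 60952072 on the plus strand and is not followed by an A. These are matches of letters, and neither binding nor mRNA was measured here.

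Levels are given as log2 of reads per 10000000 reads of the library total. All values under 10 reads per 10000000 had been raised to 10, the floor, which is 3.32 on this scale. Library totals, recovered from the values, ran from 6387766 to 10562634 reads, and the floor stood for 6.39 to 10.6 reads. Wt replicate 2 stood apart from the rest before any comparison of the family was made. Its summed level of the epididymis and testis markers was 16.42 against 9.76 to 10.49 in the other 5 libraries, and that of the epithelial markers was 15.62 against 7.37 to 8.53. Its erythroid markers were the lowest of the 6 libraries, at 15.64 against 16.51 to 17.67. Of the 4 epididymis and testis markers, miR-34b-5p and miR-34c-3p stayed at the floor throughout, Wt replicate 2 included. That sum thus rests on the other 2 markers. Of the 7 epithelial markers, miR-429 never left the floor, and only 3 exceeded it in all 6 libraries. The adipocyte markers lay between 19.08 and 19.56 in all 6 libraries, and miR-193b-3p and miR-455-3p were at the floor among them. Values of the family are therefore also given without Wt replicate 2 where that changes them.

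miR-16-5p was by far the most abundant strand of the family. It ranked 26 of the 329 tested rows by mean level, and between 18456 and 41678 of its reads were counted per library. Its level was 15.43, 15.20 and 15.01 in Wt replicates 1, 2 and 3 and 15.29, 14.82 and 14.88 in Agt Tg replicates 1, 2 and 3. Agt Tg replicate 1 lay above 2 of the Wt libraries, so the groups overlapped. In reads per 10000000 the mean of the Wt mice was 38255 and that of the Agt Tg mice 33070.

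**Figure D1:**
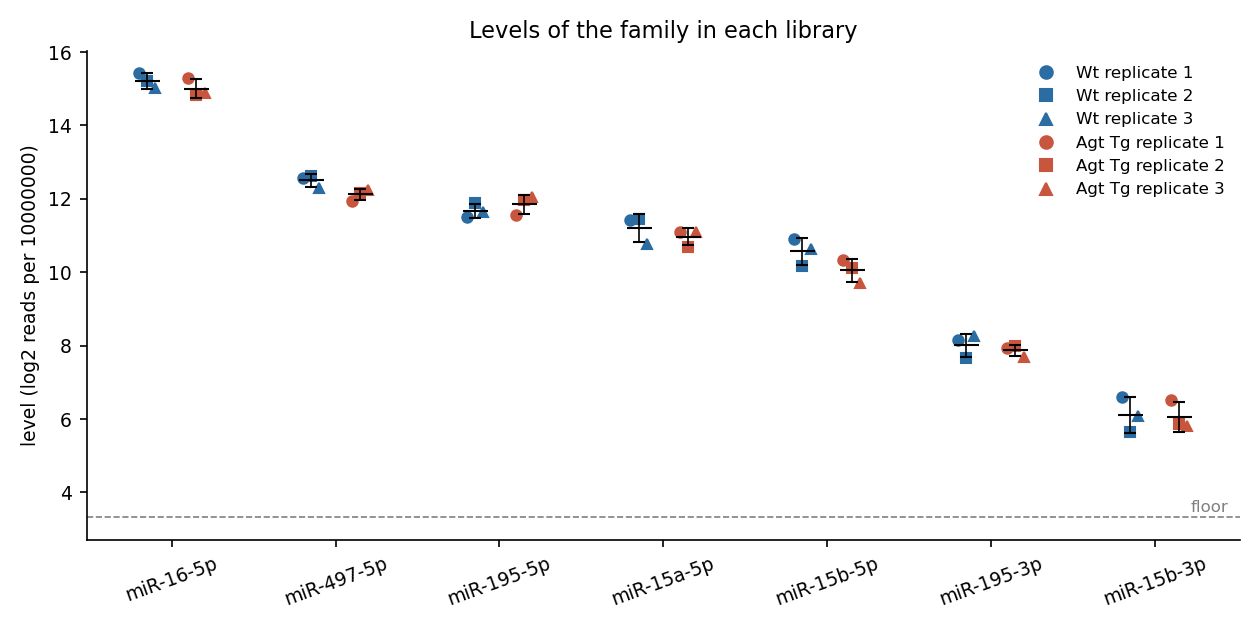
Level of each family row above the floor (vertical axis, log2 reads per 10000000) in the 3 Wt and 3 Agt Tg libraries. Points are libraries, black bars the mean and SD (n = 3), and the dashed line the floor at 3.32. miR-16-5p sits between 14.82 and 15.43, above the other guide strands, and the 3p rows miR-195-3p and miR-15b-3p sit lowest.

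The other 4 guide strands followed within a narrower range. miR-497-5p had a mean level of 12.31 over the 6 libraries (rank 63), miR-195-5p 11.76 (rank 72), miR-15a-5p 11.09 (rank 86) and miR-15b-5p 10.31 (rank 102). This order, from miR-16-5p through miR-15b-5p, was the same in 6 of 6 libraries, and it went on to miR-195-3p (7.94) and miR-15b-3p (6.09). The steps differed in size. miR-16-5p stood 2.80 ± 0.29 (log2, SD, n = 6) above miR-497-5p, whereas miR-497-5p stood only 0.54 ± 0.34 above miR-195-5p. The smallest single step among the guides was 0.09, between miR-195-5p and miR-15a-5p in Wt replicate 1. Taken over all libraries, the ranges of miR-497-5p and miR-195-5p overlapped, as did those of miR-15a-5p and miR-15b-5p, so that these neighbours were told apart only within a library. All mature strands are of nearly the same length, but cloning efficiency differs between small RNAs, so that levels of different rows compare reads and not molecules.

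miR-497-5p, the miR-15-like member of the chromosome 11 cluster, was at 12.56, 12.63 and 12.29 in the Wt and at 11.94, 12.17 and 12.25 in the Agt Tg libraries (replicates 1, 2 and 3). The 3 Agt Tg libraries were below the 3 Wt libraries, by a gap of 0.05 between the nearest of them. miR-195-5p, its miR-16-like neighbour, was at 11.50, 11.89 and 11.63 in the Wt and at 11.56, 11.97 and 12.04 in the Agt Tg libraries. Here the groups overlapped, and the 2 highest values were those of Agt Tg mice.

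miR-15a-5p, from the Dleu2 cluster, was at 11.41, 11.45 and 10.77 in the Wt and at 11.09, 10.70 and 11.10 in the Agt Tg libraries. Its groups overlapped because Wt replicate 3 was nearly as low as the lowest Agt Tg library. miR-15b-5p, from the Smc4 cluster, was at 10.90, 10.18 and 10.64 in the Wt and at 10.32, 10.11 and 9.72 in the Agt Tg libraries. Only Wt replicate 2 lay within the range of the Agt Tg mice.

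**Figure D2:**
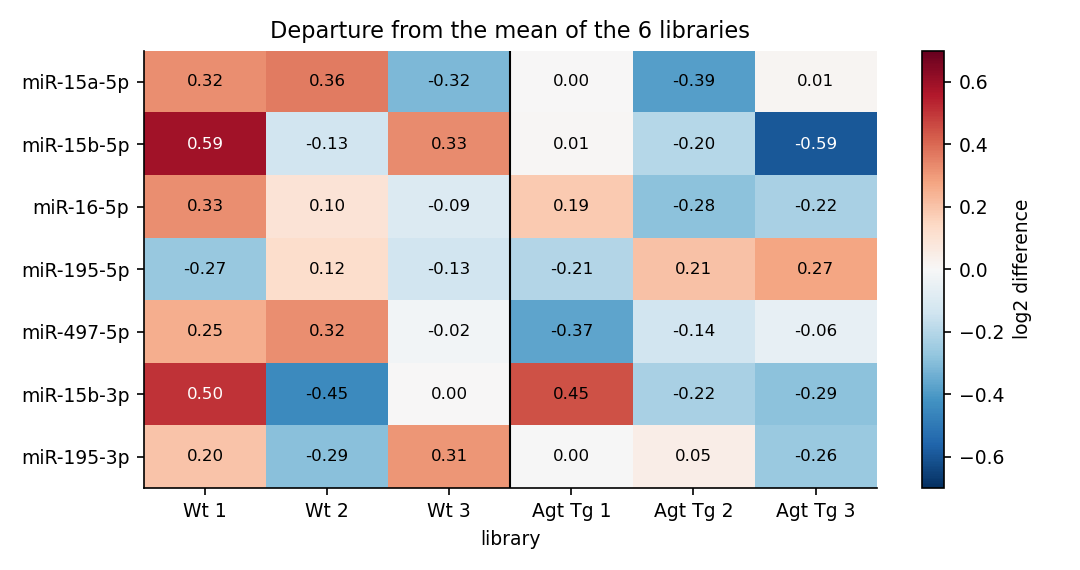
Departure of each family row from its own mean over the 6 libraries (colour and printed number, log2 difference), with libraries in columns. The span is widest for miR-15b-5p, from -0.59 in Agt Tg replicate 3 to 0.59 in Wt replicate 1, and miR-195-5p and miR-497-5p depart in opposite directions in 3 of the 6 libraries.

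Of the 3p strands, miR-195-3p was at 8.14, 7.65 and 8.25 in the Wt and at 7.94, 7.99 and 7.68 in the Agt Tg libraries, with between 157 and 300 reads. miR-15b-3p was at 6.59, 5.64 and 6.09 in the Wt and at 6.53, 5.86 and 5.80 in the Agt Tg libraries. It had only 37 to 96 reads, for which counting error alone is 10.2% to 16.4%, whereas that of the 5 guides was at most 3.77%. Both strands overlapped between genotypes. In every library the 5p strand of these hairpins outnumbered the 3p strand, by 13.8 to 23.4 times for miR-15b and by 10.3 to 20.5 times for miR-195.

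The other 3p strands, miR-15a-3p, miR-16-1-3p, miR-16-2-3p and miR-497-3p, were listed at the floor in 6 of 6 libraries. In every library miR-16-5p was at least 2890 times the floor value at which its 3p rows were listed, miR-497-5p at least 393 times and miR-15a-5p at least 167 times. The rows carry human names, and the human sequences behind them were not used here. Whether mouse reads of these 3p strands could match them was not tested, so the multiples of the floor are not bounds on the strands in the tissue.

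The family took a small share of the reads on listed miRNAs, 1.07%, 0.946% and 0.783% in Wt replicates 1, 2 and 3 and 0.954%, 0.784% and 0.776% in Agt Tg replicates 1, 2 and 3. The mean was 0.934% ± 0.145 in Wt and 0.838% ± 0.101 in Agt Tg mice (SD, n = 3), and the groups overlapped (p = 0.6, two-sided exact permutation test). The reads behind these shares numbered 25923 to 52814 per library. miR-16-5p made up between 70.9% and 78.9% of them, miR-497-5p between 7.72% and 12.2% and miR-195-5p between 4.99% and 9.9%. Together the 2 strands of the miR-16 kind and miR-497-5p thus held most of the reads, and miR-15b-5p had 1.98% to 3.57%.

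The genotypes were compared on the log2 values with limma over all 329 tested rows, and p-values measure the spread between these mice. A row passed the threshold if its unadjusted p did not exceed 0.05 and its log2 fold change was 1 or more in either direction. This held for 0 of the 7 family rows, compared to 4.86% of all tested rows. By unadjusted p alone 0 of the 7 passed, against 9.12% of all rows, and limma-voom on the recovered reads likewise called 0 of the 7. After Benjamini-Hochberg adjustment limma called 0% of the 329 rows, with a smallest adjusted p of 0.382. The groups did not overlap in 1 of the 7 family rows, miR-497-5p, compared to 17.6% of all tested rows in either direction and 10.6% that were lower in Agt Tg mice. The family's share was therefore close to that of all rows.

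The differences were small and their intervals wide. For miR-15b-5p the mean was 10.57 ± 0.36 in Wt and 10.05 ± 0.31 in Agt Tg mice (SD, n = 3). Its log2 fold change was -0.53 with a standard error of 0.28 and a 95% interval from -1.18 to 0.13 (limma adjusted p = 0.531). On the linear scale this is 0.695 times the Wt level, with an interval from 0.441 to 1.09 times. For miR-497-5p the mean was 12.50 ± 0.18 in Wt and 12.12 ± 0.16 in Agt Tg mice (SD, n = 3). Its log2 fold change was -0.38 with a standard error of 0.19 and a 95% interval from -0.83 to 0.08 (limma adjusted p = 0.531). For miR-16-5p the log2 fold change was -0.22 (95% interval -0.69 to 0.26), and for miR-15a-5p it was -0.24 (-0.86 to 0.37). Of the guides, only miR-195-5p had a positive value, 0.18 (95% interval -0.34 to 0.70). The intervals of miR-16-5p, miR-195-5p, miR-497-5p and miR-15a-5p stayed within a log2 change of 1 in both directions, and that of miR-15b-5p reached past -1.

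**Figure D3:**
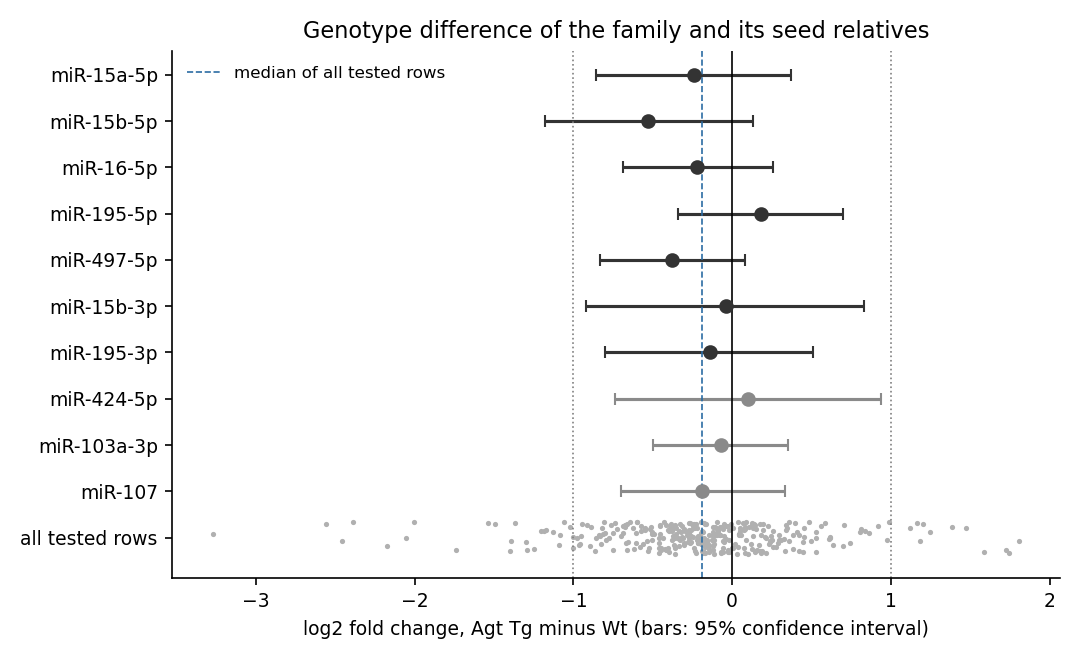
Log2 fold change, Agt Tg minus Wt, of the 7 family rows (black) and of 3 miRNAs with the same or a related seed (grey), with 95% limma confidence intervals. The lowest row shows all 329 tested rows as points, the dashed line marks their median at -0.19, dotted lines mark a log2 change of 1, and every interval plotted includes 0.

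The 3p strands showed as little. miR-195-3p had a log2 fold change of -0.14 (95% interval -0.80 to 0.51) and miR-15b-3p of -0.04 (-0.92 to 0.83), and the latter turned positive under TMM scaling, at 0.09. Over the 7 rows the median was -0.22 and 6 were below 0, but the median of all 329 rows was -0.19 and 67.5% of them were below 0. Under TMM scaling, which sets the bulk of the rows level between libraries, these medians were -0.08 and -0.06. Relative to the median of all rows on the deposited scale, miR-16-5p stood at -0.03, miR-15a-5p at -0.06, miR-497-5p at -0.19, miR-15b-5p at -0.34 and miR-195-5p at 0.37.

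Without Wt replicate 2 the value of miR-15b-5p was -0.72 with an unadjusted limma p of 0.023, past 0.05 but not past the fold threshold, and its limma adjusted p was 0.299. That of miR-15a-5p moved to -0.12, of miR-195-5p to 0.29, of miR-195-3p to -0.33 and of miR-15b-3p to -0.28. miR-16-5p stayed at -0.22 and miR-497-5p was at -0.31. Markers of other cells are given for comparison. The summed leukocyte markers were at 15.46, 15.41 and 15.48 in Wt and at 15.43, 15.00 and 14.84 in Agt Tg replicates 1, 2 and 3. Agt Tg replicates 2 and 3, the lowest in these markers, were also the 2 lowest in miR-15b-5p and miR-16-5p. The other guides went otherwise. In miR-195-5p these 2 libraries were the highest, at 11.97 and 12.04, and miR-497-5p was lowest in Agt Tg replicate 1, at 11.94. In miR-15a-5p Agt Tg replicate 3, at 11.10, was above Wt replicate 3, at 10.77. Of the 6 leukocyte markers 5 were above the floor and miR-155-5p was at it. The endothelial markers ran from 16.11 to 16.41 in Wt and from 16.24 to 16.85 in Agt Tg mice. The summed erythroid markers varied more, at 17.39, 15.64 and 17.43 in Wt and 17.67, 16.76 and 16.51 in Agt Tg replicates 1, 2 and 3. Wt replicates 1 and 3 and Agt Tg replicate 1 were highest in them. The same libraries were highest in miR-15b-5p and miR-15b-3p, but not in the other family rows. The part of these cells in the family's values was not tested.

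Ratios between rows of the same library do not depend on how libraries are scaled, and 7 of them were computed. They were 3 between guides that are neighbours in a cluster, 2 between the arms of a hairpin, and 2 between guides of like sequence. The last 2 were miR-15a-5p to miR-15b-5p and miR-195-5p to miR-16-5p, from different clusters. The miR-16-5p row sums the Mir16-1 and Mir16-2 clusters, so its ratios to miR-15a-5p and miR-15b-5p do not stay within a cluster. The miR-195-5p row could also hold reads of miR-195b, which was not tested. In 2 of the 7 the groups did not overlap, compared to 15.2% of all 36315 pairs that can be formed from the 270 rows with no library at the floor. Of the 10 pairs that the 5 guides can form, 1 did not overlap.

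That pair was miR-195-5p to miR-497-5p, the neighbours on chromosome 11. The log2 ratio was -1.06, -0.74 and -0.66 in Wt replicates 1, 2 and 3 and -0.39, -0.20 and -0.21 in Agt Tg replicates 1, 2 and 3. miR-195-5p thus had 0.565 times the reads of miR-497-5p in Wt and 0.832 times in Agt Tg mice (from the mean log2 ratios). The difference, 0.56 between means of -0.82 ± 0.21 and -0.26 ± 0.10 (SD, n = 3), was larger than the spread in either group. The nearest libraries of the 2 groups were 0.28 apart. The ratio was higher in 3 of 3 Agt Tg mice than in any Wt mouse (p = 0.1 in a two-sided exact permutation test, where no smaller p can be had with 3 mice a group, and 0.35 when adjusted over the 7 ratios). With each library left out in turn the difference ran from 0.44 to 0.64.

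The other ratio without overlap was that of the arms of miR-15b. The log2 ratio of miR-15b-5p to miR-15b-3p was 4.31, 4.54 and 4.55 in the Wt and 3.78, 4.25 and 3.91 in the Agt Tg libraries. The mean was 4.47 ± 0.14 in Wt against 3.98 ± 0.24 in Agt Tg mice (SD, n = 3), and the difference was -0.48 (two-sided exact permutation test, p = 0.1, and 0.35 when adjusted over the 7 ratios). The nearest libraries of the 2 groups were 0.06 apart. The 3p strand has few reads, and the counting error of a single ratio was 0.15 to 0.24, compared to 0.03 to 0.04 for miR-195-5p to miR-497-5p. With each library left out in turn the difference ran from -0.62 to -0.38.

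**Figure D4:**
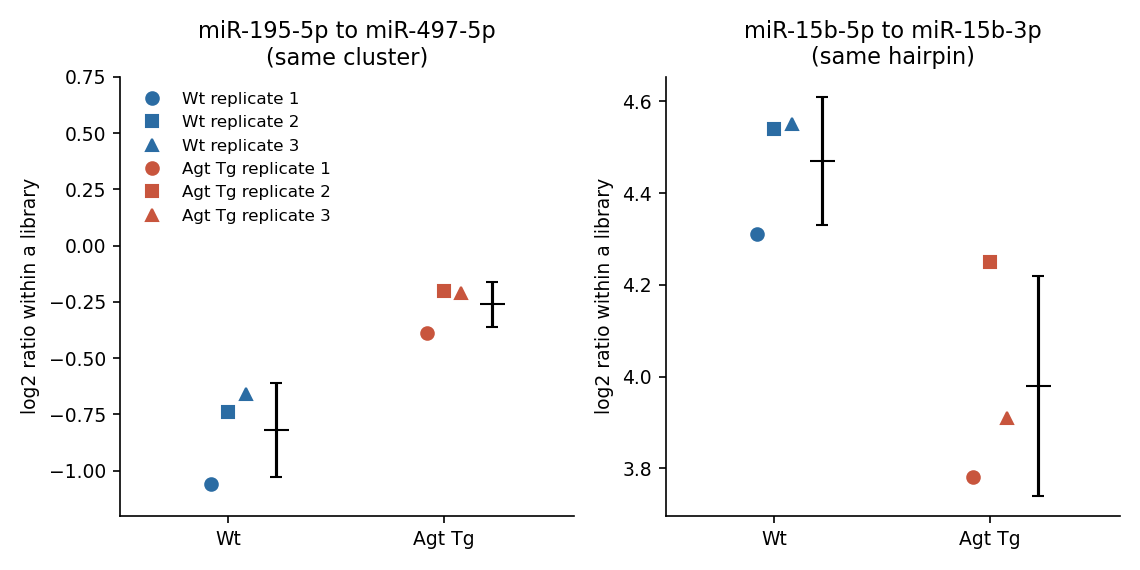
Log2 ratio within each library of miR-195-5p to miR-497-5p (left) and of miR-15b-5p to miR-15b-3p (right), in Wt and Agt Tg mice. Points are libraries and black bars the mean and SD (n = 3). On the left the Wt libraries lie between -1.06 and -0.66 and the Agt Tg libraries between -0.39 and -0.20, and on the right the groups come within 0.06 of each other.

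The ratios of miR-15a-5p and miR-15b-5p to miR-16-5p, whose row sums both of their clusters, overlapped between genotypes. The log2 ratio of miR-15a-5p to miR-16-5p was -4.00 ± 0.24 in Wt and -4.03 ± 0.23 in Agt Tg mice (SD, n = 3). That of miR-15b-5p to miR-16-5p was -4.64 ± 0.34 in Wt and -4.95 ± 0.23 in Agt Tg mice (SD, n = 3). The differences were -0.03 and -0.31 (two-sided exact permutation tests, p = 0.9 and 0.3). Without Wt replicate 2 the difference of miR-15b-5p to miR-16-5p was -0.50 and its groups no longer overlapped, and with each library left out in turn it ran from -0.50 to -0.17. Whether the clusters differed from each other in this was not tested. Of the ratios between clusters, miR-15a-5p to miR-15b-5p differed by 0.28 and miR-195-5p to miR-16-5p by 0.40, and both overlapped (two-sided exact permutation tests, p = 0.5 and 0.3). Without Wt replicate 2 these differences were 0.60 and 0.51. The arms of miR-195 had a difference of 0.32 in the log2 ratio of 5p to 3p (two-sided exact permutation test, p = 0.5), and 0.62 without Wt replicate 2. Without Wt replicate 2, 5 of the 7 ratios did not overlap, compared to 33.7% of all pairs of rows. Those were miR-15b-5p to miR-16-5p, miR-15a-5p to miR-15b-5p, miR-195-5p to miR-497-5p, miR-15b-5p to miR-15b-3p and miR-195-5p to miR-195-3p. Each of them holds miR-15b-5p or miR-195-5p, so they are not 5 separate observations, and an excess over all pairs was not tested.

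The 3 rows nearest in pattern to each guide were outside the family, which holds only a few of the rows compared. For each guide, the rows nearest in pattern were found as those with the smallest root mean square difference of mean-centred log2 values over the 6 libraries, among 269 other rows. miR-16-5p was nearest to miR-148b-5p (0.090), miR-20a-5p (0.123) and miR-125b-1-3p (0.131), and miR-15a-5p to miR-20a-5p (0.097), miR-21-5p (0.117) and let-7i-5p (0.137). miR-15b-5p was nearest to miR-532-5p (0.141), miR-411-3p (0.141) and miR-410 (0.144). For miR-195-5p these were miR-23b-3p (0.103), let-7b-5p (0.124) and miR-143-3p (0.125), and for miR-497-5p miR-107 (0.109), miR-106b-5p (0.118) and miR-542-5p (0.131).
The closest rows within the family were miR-16-5p and miR-15a-5p, with a difference of 0.191, which placed 10 for miR-15a-5p and 17 for miR-16-5p. The neighbours miR-195-5p and miR-497-5p differed by 0.311, at places 60 and 65. The farthest pair of guides was miR-195-5p and miR-15b-5p, at 0.574. All rows share the same 6 libraries, so these distances describe the libraries and have no test.

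Of the wider seed group, miR-424-5p, which has the same seed, lay near the low end, with a mean of 6.13 ± 0.19 in Wt against 6.23 ± 0.55 in Agt Tg mice (SD, n = 3). Its lowest value, 5.65, and its highest, 6.74, were both in Agt Tg libraries. Its log2 fold change was 0.10 (95% interval -0.74 to 0.94). This row carries a human name, and how fully reads of the mouse counterpart, miR-322-5p, could match it was not tested. miR-103a-3p and miR-107, whose seed GCAGCAU shares the letters GCAGCA with the family's seed, shifted by a base, are encoded in introns of pantothenate kinase genes. The mean of miR-103a-3p was 14.52 ± 0.13 in Wt against 14.45 ± 0.21 in Agt Tg mice, and that of miR-107 was 10.02 ± 0.20 against 9.83 ± 0.13 (SD, n = 3). Their log2 fold changes were -0.07 (95% interval -0.50 to 0.35) and -0.19 (-0.70 to 0.33). miR-503-5p and miR-646 were listed at the floor in all 6 libraries, and miR-6838-5p was not listed. Whether mouse reads could match these human-named rows was not tested either, so their place at the floor is not a measure of the tissue level. Of the 3 relatives tested, 0 passed an unadjusted limma p of 0.05 and 0 passed the threshold of p and fold change.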

How the data were processed

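Small RNA sequencing of epididymal WAT was analysed for 3 male mice of each genotype, Wt and Agt Tg, grouped and numbered by their titles. The deposited table holds log2 values, which the authors made by aligning reads to miRBase precursors and keeping those on mature miRNAs. By the values themselves, the unit is log2 of reads per 10000000 reads of the library, with a floor at 10. Of the 1924 values above the floor, 1924 came out as whole reads within 0.02. Neither the miRBase release nor the number of mismatches is given in the sources used here. The build in the labels is mm10. Every column of values belonged to a sample, and 0 were left over.

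The 329 rows with at least 3 libraries above the floor were fitted with limma 3.58.1 in R 4.3.3, with genotype as the single factor, a trended prior variance and Benjamini-Hochberg adjustment over all of them. The study's methods also set a threshold on p and fold change, with an absolute fold change above 1, whereas its heat map legend gives above 2. The threshold used here, a log2 fold change of 1, is a fold change of 2. Single values and ratios were compared with two-sided exact permutation tests, where 3 against 3 cannot give a p under 0.1. Counting errors cover the counting of reads only, and intervals are those of limma at 95%. The fit was tested on simulated data with planted changes larger than any of the family, so that test does not cover differences as small as these. Alternatives were log2(value + 1) of CPM, limma-voom, TMM scaling, scaling to the reads on listed miRNAs or to miR-191-5p, other filters, no fold threshold, a replicate block and leaving out each library. Marker lists of cell types were summed per library, and of the muscle list miR-1 was above the floor in Wt replicate 2 alone. Named were every family row, the wider seed group, the marker lists, miR-191-5p (log2 fold change 0.01) and the 3 rows nearest in pattern to each guide. Members and lists were chosen with earlier results of these data known. Python 3.11.15 read sequences from RefSeq (GRCm38.p6) and transcripts from GENCODE M21 (GRCm38), and matplotlib 3.10.9 drew the figures.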

Additional observations from a re-analysis of the deposited data

How the results depend on the processing

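None of the 7 family rows was past the threshold of p and fold change under any alternative run, with 0 in each. Without a fold threshold it was also 0, and without Wt replicate 2 miR-15b-5p alone had an unadjusted limma p under 0.05. The signs of 6 of the 7 log2 fold changes held under every alternative. That of miR-15b-3p, -0.04, turned positive under TMM scaling (0.09) and when scaled to the reads on listed miRNAs (0.02), and ran from -0.28 to 0.20 with each library left out. With each library left out, miR-15b-5p ran from -0.72 to -0.36, miR-497-5p from -0.48 to -0.29, miR-16-5p from -0.36 to -0.11, miR-15a-5p from -0.46 to -0.11, miR-195-5p from 0.09 to 0.33 and miR-195-3p from -0.33 to -0.02. The difference of the miR-15a-5p to miR-16-5p ratio, -0.03, ran from -0.16 to 0.10. The number of ratios without overlap, 2 of 7, ran from 2 to 5 (5 without Wt replicate 2). It was 3 of 11 when the ratios of 5p strands to the 3p strands at the floor were added. The floor is a constant, so these added ratios repeat the 5p levels and do depend on the scaling. The added ratio without overlap was that of miR-497-5p, whose level is described above.

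Over all rows the count at the threshold was 16, with 9 higher and 7 lower. It was 7 on log2(value + 1), 3 of 208 rows with a mean of at least 10 CPM, 14 under TMM scaling (10 higher and 4 lower) and ran from 12 to 35 when single libraries were dropped, with 35 (10 higher and 25 lower) without Agt Tg replicate 1 and 22 (9 higher and 13 lower) without Wt replicate 3. The log2 ratio of the family's share of listed reads, Agt Tg over Wt, kept its sign and ran from -0.27 to -0.05 with each library left out. Same-numbered mice did not deviate together (correlations over rows of 0.22, -0.18 and -0.21), so the numbers were not taken as pairs. With the replicate number as a block 0 family rows passed, and 17 of all rows did. Depth limits the precision of miR-15b-3p, which had 37 to 96 reads. Why the 4 rows at the floor are there was not tested.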
